A study of Rattus norvegicus with 6 samples.

Results

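The genes described here build or surround the extracellular matrix of the renal cortex: fibrillar and interstitial matrix proteins, basement membrane proteins, proteins that process or degrade matrix, and markers of mural and mesenchymal cells. The set lists 39 genes, chosen by name with earlier results of these data known. A probe belonged to the set where its RefSeq transcript belongs to a listed gene. In all, 61 of the 61537 probes matched, for 32 of the 39 genes (15645 genes had a probe on the array). Col5a2, Col6a1, Col4a2, Col4a3, Nid1, Hspg2 and Lox had no probe matched in this way and were not analysed here. Of the 32 genes, 29 could be tested, and each of these was well above background on all 6 arrays.

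The animals were male Sprague-Dawley rats (Crl:CD(SD)), bought at 5 weeks of age, with 1 one-colour Agilent array of cortex RNA per rat. The control group of 3 rats (labelled VC) was administered water for 4 weeks, and 3 rats were dosed with DPG (dipropylene glycol, used as a solvent and humectant) for as long, at 1000 mg/kg/day. Both groups had the same basal diet and tap water, and the labels used here name no route of dosing. The question was which genes of the cortex differed between the groups.

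The kidney cortex holds little interstitial matrix, laid down mainly by fibroblasts as fibrils of type I, III and V collagen with fibronectin, elastic fibres and small proteoglycans. Each tubule and capillary rests on a basement membrane, a sheet of type IV collagen and laminin networks joined by nidogen and perlecan, and the glomerulus filters blood through a specialised one. Smooth muscle cells of the arterioles and pericytes of the capillaries, together called mural cells, carry contractile proteins, and in scarring kidneys fibroblasts take up some of these proteins and deposit fibrillar collagen.

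Between 39556 (control 3) and 43184 (control 2) probes were well above background per array, with 0 saturated spots. With 3 arrays a group, precision is limited throughout. Outlier flags marked 34 spots on control 3 and 4 spots on DPG 1. Each group had a slide and a scan run of its own, so group, slide and scan cannot be told apart in any result below. In cortex RNA, fewer cells of a type and less RNA per cell cannot be told apart either. All 12 podocyte markers, all 9 of the convoluted and all 8 of the straight proximal tubule passed the filter on dim probes. All 10 medulla and collecting duct markers passed it too, so passing does not tell cortex from medulla. Of the smooth muscle markers, Acta2, Tagln, Myh11 and Des were measured on all arrays, while Cnn1, the calponin gene, passed that filter on 0 of 3 control and 1 of 3 DPG arrays. The fibroblast proteoglycan gene Lum and the periostin gene Postn, a matricellular protein of scars, were not well above background on any array, so no difference is given for these 3 genes.

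Signals below are log2 values relative to the 75th percentile of the same array, so they compare 1 probe between animals and not 1 gene with another. A difference is the DPG mean minus the control mean on that log2 scale, given with limma's standard error (SE). Adjusted p-values are Benjamini-Hochberg values over all 29647 features, of which 11924 have a gene symbol. Most matrix genes differed between the groups by less than the spread between animals. With limma, 0 of 29 genes passed an adjusted p of 0.05, as did 0 of all features (0%), and the smallest adjusted p among the 29 was 0.204. At an unadjusted p of 0.05, 5 of the 29 passed (17.2%), against 3669 of all features (12.4%). The same 5 genes had groups that did not overlap (17.2%), against 19.7% of all features, so neither share stood far from the background. Tinagl1, Lamc1 and Serpinh1 were the 3 on the higher side (6.68% of all features were higher at that unadjusted p, and 10.7% had DPG arrays all above the controls). Col4a4 and Timp3 were the 2 on the lower side (5.7% and 8.96% of all features). The median log2 fold change was 0.03 over the 29 genes (-0.03 without control 3, -0.05 without DPG 3) and 0.00 over all features.

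**Figure D1:**
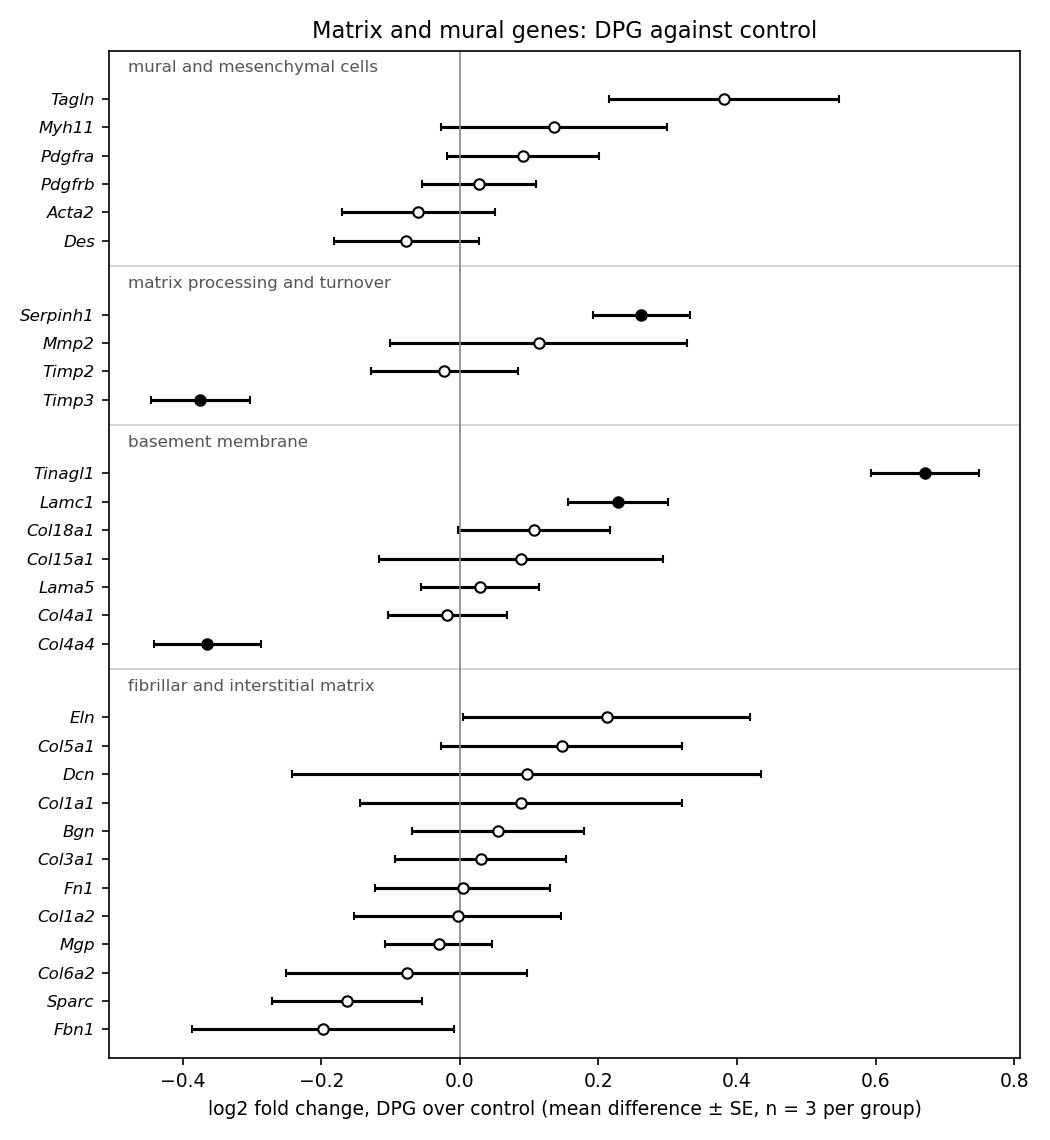
Log2 fold change (DPG over control) of the 29 tested genes by class, as mean difference ± SE with 3 rats per group. Filled points passed an unadjusted p of 0.05 and open points did not. Tinagl1 lies farthest to the right at 0.67, Timp3 and Col4a4 farthest to the left at -0.37 and -0.36, and the 12 fibrillar and interstitial genes lie between -0.20 and 0.21.

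Fibrillar and interstitial matrix genes gave no difference between the groups that passed the test. Of the 16 listed, 12 were tested, 7 with a log2 fold change above 0 and 5 below. None of the 12 passed an unadjusted p of 0.05 with limma (0%, against 12.4% of all features), and the groups overlapped for all 12. Their median was 0.02, and it lay below 0 without control 3 (-0.06), DPG 1 (-0.02) or DPG 3 (-0.06). The smallest adjusted p was 0.588.

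Col1a1, which encodes a chain of type I collagen, the main fibril of scar tissue, read 1.27, 1.26 and 0.90 in controls 1 to 3 and 0.98, 0.99 and 1.72 in DPG 1 to 3. DPG 3 alone lay above all controls, and the other two DPG arrays lay within the control range. The difference was 0.09 ± 0.23 (SE, n = 3 per group; 95% confidence interval -0.48 to 0.66). Its partner chain gene Col1a2 read 3.86, 3.89 and 3.54 in the controls and 3.85, 3.51 and 3.91 in the DPG rats, with a difference of 0.00 ± 0.15. Col3a1, whose type III collagen accompanies type I in young and soft fibrils, read 1.72, 1.69 and 1.46 against 1.65, 1.47 and 1.84, a difference of 0.03 ± 0.12. In both genes the low control was control 3 and the low DPG array was DPG 2.

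Fn1, which encodes fibronectin, the glycoprotein on which fibrils assemble, read 1.65, 1.80 and 1.56 in the controls and 1.80, 1.44 and 1.79 in the DPG rats. Its difference was 0.00 ± 0.13 (95% confidence interval -0.30 to 0.31). The interval of Dcn, the gene of the collagen-binding proteoglycan decorin, was the widest of the 29, from -0.73 to 0.93. Dcn read 3.07, 3.22 and 2.22 in the controls and 3.16, 2.41 and 3.23 in the DPG rats, so 1 animal of each group was far below the other two.

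The other members of this class had differences within the same bounds. Col5a1, a chain of the collagen that starts fibrils, had 0.15 ± 0.17, and Col6a2, a chain of beaded microfibrils, had -0.08 ± 0.17. The elastic fibre genes Eln (elastin) and Fbn1 (fibrillin 1) had 0.21 ± 0.21 and -0.20 ± 0.19, neither past the test. Eln was at 0.023 without DPG 3, and 1 of its 3 probes read -0.09. Fbn1 ranged from -0.35 to -0.07 with 1 array left out. The proteoglycan gene Bgn (biglycan) had 0.06 ± 0.12, the calcification inhibitor gene Mgp had -0.03 ± 0.08, and Sparc, a collagen-binding matricellular protein gene, had -0.16 ± 0.11.

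What the class shared was a spread between animals of one group. Control 3 was the lowest control array for 11 of the 12 genes, DPG 2 was the lowest DPG array for 9 of the 12, and for 9 of the 12 both held. Over all features, 37.6% were lowest in control 3, 35.3% in DPG 2, and 14.1% in both. The mean shift of the 12 genes from their control means was 0.12, 0.08 and -0.20 (log2) in controls 1 to 3 and 0.08, -0.20 and 0.16 in DPG 1 to 3. The DPG rats thus spanned the range of the controls, with an SD of 0.18 among the control and 0.19 among the DPG shifts. Control 3 and DPG 2 were singled out from these same values, so the shares over all features describe the pattern and do not test it. These genes were measured in the same RNA and are not separate replicates of this pattern, and its cause was not tested. Leukocyte and macrophage markers (12 of 14 tested) had mean shifts of -0.16, 0.16 and -0.01 in the controls and 0.21, -0.20 and 0.39 in the DPG rats, low in DPG 2 but not in control 3. These 12 include Cd3e, well above background on 2 of 3 control arrays. Endothelial markers (12 of 14 tested) had mean shifts of 0.04, 0.01 and -0.05 in the controls and 0.05, 0.02 and -0.02 in the DPG rats.

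**Figure D2:**
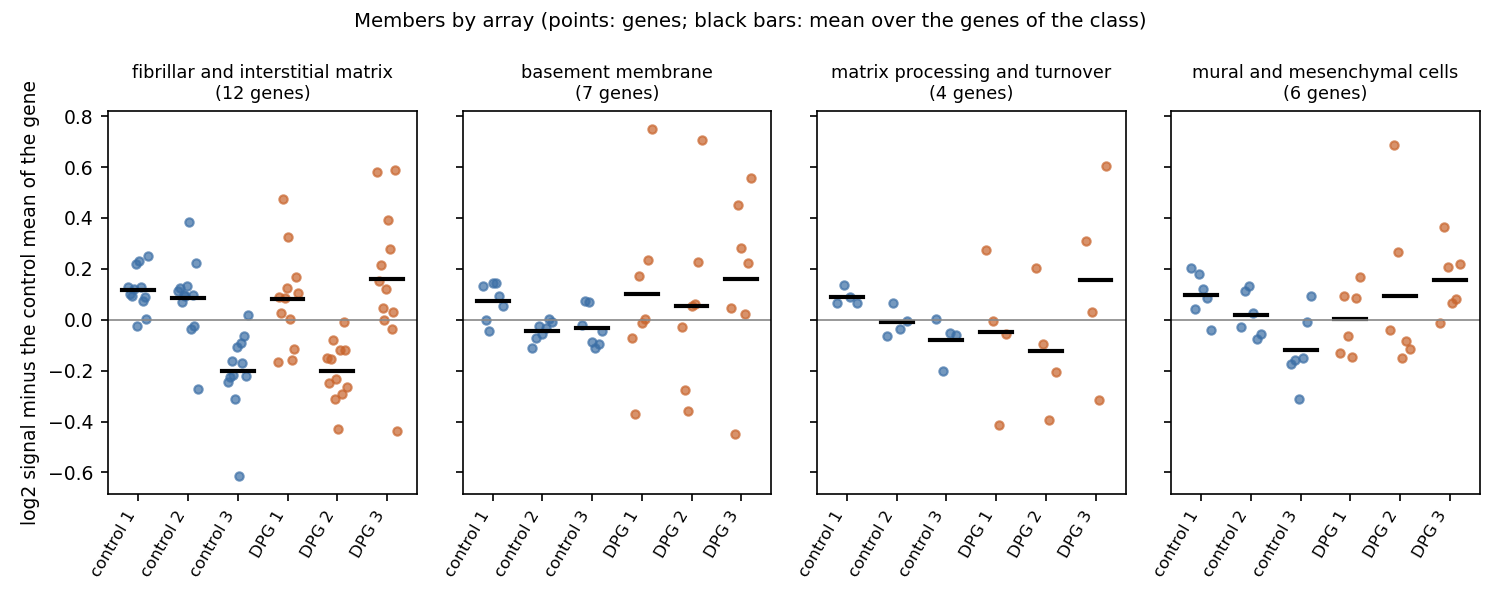
Log2 signal of each tested gene minus its control mean, by array, for the 4 classes. Points are genes and black bars are the mean over the genes of a class in that array. In the fibrillar and interstitial class the bars of control 3 and DPG 2 both lie at -0.20, while those of the other arrays lie between 0.08 and 0.16.

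In the other classes both arrays were the lowest of their group for 0 of 7 basement membrane genes, 2 of 4 processing genes and 1 of 6 mural genes. Among genes of collagen synthesis and crosslinking, which were not members, the pattern held for 8 of 21, and among other interstitial matrix genes for 5 of 23.

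Basement membrane genes went both ways. Of 11 listed genes 7 were tested, 5 with a log2 fold change above 0 and 2 below, and 3 of the 7 passed an unadjusted p of 0.05 (42.9%, against 12.4% of all features), 2 higher and 1 lower. None passed the adjusted threshold of limma. The class median was 0.09.

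Tinagl1 had the largest difference of the 29 genes. It encodes a secreted protein of basement membranes related to tubulointerstitial nephritis antigen. Its signal was 2.32, 2.26 and 2.23 in controls 1 to 3 and 3.02, 2.98 and 2.83 in DPG 1 to 3, so the lowest DPG array lay well above the highest control. The difference was 0.67 ± 0.08 (SE, n = 3 per group), a 1.59-fold higher signal (95% confidence interval 0.48 to 0.86), with a limma adjusted p = 0.204. A second probe of Tinagl1 read 0.58 ± 0.09, and its groups did not overlap either. With 1 array left out the value ranged from 0.63 to 0.73. Tinag, the related antigen gene and not a member, had -0.19 ± 0.10 with overlapping groups.

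Col4a4 lay on the other side. It encodes the alpha 4 chain of type IV collagen, which joins the alpha 3 and alpha 5 chains in the glomerular basement membrane, where podocytes make it. Its signal was 2.41, 2.34 and 2.49 in the controls and 2.05, 2.14 and 1.97 in the DPG rats, with no overlap. The difference was -0.36 ± 0.08, a 1.29-fold lower signal, with a limma adjusted p = 0.252. Its second probe gave -0.33 ± 0.08. Podocyte markers were read in the same arrays. Of the 12 markers, 11 had a log2 fold change below 0, with a median of -0.21, and 4 were lower at an unadjusted p of 0.05 (33.3%, against 5.7% of all features; 0 passed the adjusted threshold). Their summed signal, in multiples of the 75th percentile, ran from 34.3 to 42.8 in the controls and from 31.8 to 38.7 in the DPG rats, and none was dim. Among them the podocyte phosphatase gene Ptpro had -0.22 ± 0.07. The part of these markers in the Col4a4 difference was not tested.

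Col4a1 gives the alpha 1 chain of the type IV collagen found in nearly all basement membranes. It read 4.17, 3.93 and 4.02 in the controls and 3.97, 4.01 and 4.08 in the DPG rats, a difference of -0.02 ± 0.09 (95% confidence interval -0.23 to 0.19). Its 4 probes, all assigned to the same transcript, gave different values. One of them read 3.37, 3.34 and 3.41 against 3.64, 3.98 and 3.62, a difference of 0.37 ± 0.11 with groups that did not overlap (limma adjusted p = 0.316), and the other two read 0.09 and -0.14.

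Type IV collagen genes lie in head-to-head pairs, transcribed in opposite directions from the stretch between them. The stretches are shown because only 1 gene of each pair was measured here, and its partner was not analysed. In the RefSeq promoter table (build GRCr8) the starts of Col4a1 and Col4a2 are 76 bases apart and those of Col4a3 and Col4a4 are 412 bases apart. The Col4a1 and Col4a2 stretch lies at chr16:84885521-84885596 on the plus strand, in the direction of Col4a1, with the GC box (GGGCGG on either strand) in capitals. The Col4a4 stretch is the 250 bases before its start, chr9:91323578-91323827 on the minus strand, and its capitals mark the bases that also lie within 250 bases before the start of Col4a3.
Col4a1 and Col4a2: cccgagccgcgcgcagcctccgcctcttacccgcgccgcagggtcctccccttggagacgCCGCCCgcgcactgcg
Col4a4: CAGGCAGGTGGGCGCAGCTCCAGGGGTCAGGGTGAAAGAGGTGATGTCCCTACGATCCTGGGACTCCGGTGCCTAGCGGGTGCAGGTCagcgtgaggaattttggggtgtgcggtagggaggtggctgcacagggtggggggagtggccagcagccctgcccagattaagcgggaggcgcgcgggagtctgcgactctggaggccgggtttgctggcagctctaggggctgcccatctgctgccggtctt

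Of the members, 26 had a promoter window of 300 bases (250 before and 50 after the start) in that table. The GC box was in 13 of these 26 windows, including Col4a1, Col4a2, Col4a3, Lama5 and Lamc1, against 33.1% of all 33469 windows. The CCAAT box (CCAAT on either strand) was in 8 of the 26, against 37.5% of all windows. A match of letters is a description and not a shown binding site.

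The laminin genes Lamc1 and Lama5 encode the gamma 1 chain, shared by most laminins, and the alpha 5 chain of the mature glomerular and tubular membranes. Lamc1 read 1.96, 1.87 and 1.77 in the controls and 2.10, 2.09 and 2.09 in the DPG rats. The DPG arrays lay close together (SD 0.0051, against 0.096 in the controls) and just above the highest control. The difference was 0.23 ± 0.07, a 1.17-fold higher signal, with a limma adjusted p = 0.337. Lamc1 no longer passed an unadjusted p of 0.05 without control 2 (0.23), without control 3 (0.18) or without DPG 1 (0.23). The other two probes gave 0.22 ± 0.16 and -0.20 ± 0.26, and the mean of the 3 probes gave 0.08, and only the brightest probe passed an unadjusted p of 0.05. Lama5 had 0.03 ± 0.09, with a second probe at 0.04 and a much dimmer one at -0.26 whose groups did not overlap.

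The collagens of the outer face of basement membranes, which both release endostatin-type fragments, had differences within the spread between animals. Col18a1 read 2.96, 2.76 and 2.73 against 2.81, 2.87 and 3.10, a difference of 0.11 ± 0.11. Col15a1 was even among the controls at -0.01, 0.01 and 0.11 and uneven among the DPG rats at 0.21, -0.32 and 0.49. Its difference was 0.09 ± 0.20. Without DPG 2 it was 0.31 and passed an unadjusted p of 0.05.

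**Figure D3:**
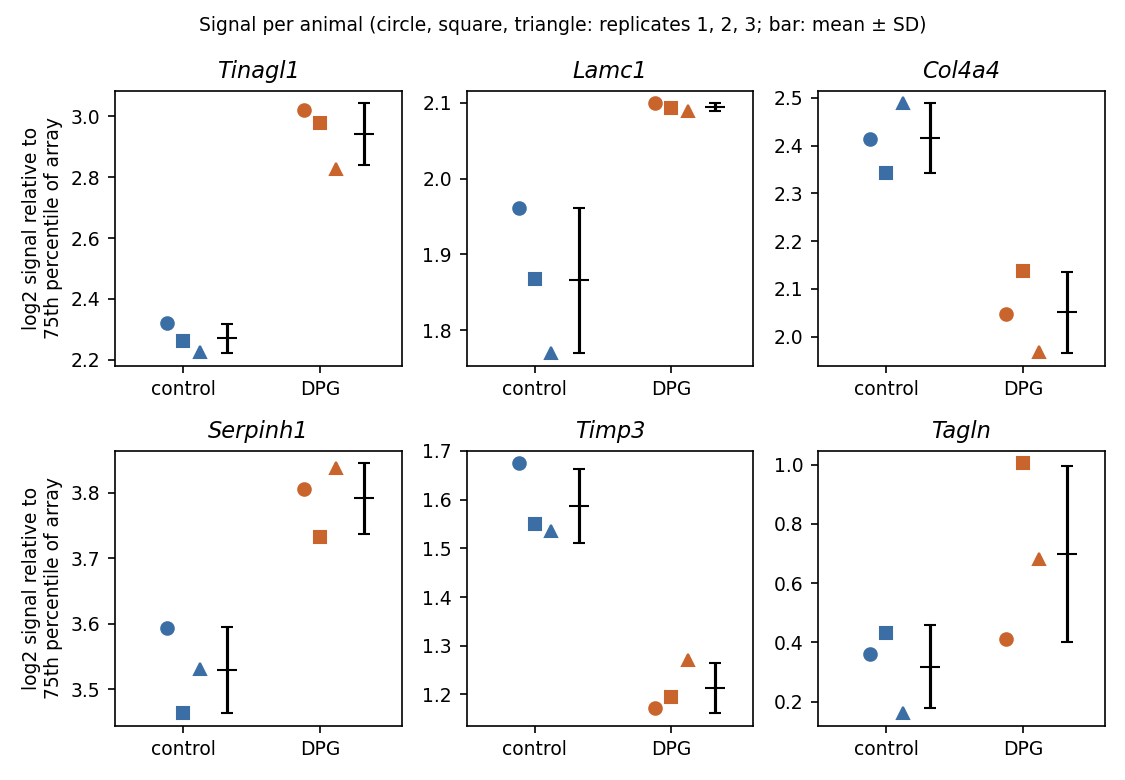
Log2 signal relative to the 75th percentile of the array in each rat for the 5 genes past an unadjusted p of 0.05 and for Tagln, with the mean ± SD of each group beside the points (n = 3 per group). Each panel has its own vertical scale. The groups are apart in the first 5 panels, by the widest gap in Tinagl1 (2.32 at most in controls, 2.83 at least in DPG), and overlap in Tagln.

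Of the 5 processing and turnover genes, 4 were tested, and 2 of these passed an unadjusted p of 0.05 in opposite directions (50%, against 12.4% of all features), with 0 past the adjusted threshold of limma. Timp3 encodes a tissue inhibitor of metalloproteinases that stays bound to the matrix. It read 1.68, 1.55 and 1.54 in the controls and 1.17, 1.19 and 1.27 in the DPG rats. All DPG arrays lay below all controls. The difference was -0.37 ± 0.07, a 1.30-fold lower signal, with a limma adjusted p = 0.224. The value ranged from -0.40 to -0.33 with 1 array left out, and Timp3 had a single probe. Timp2, a soluble inhibitor of the same family, had -0.02 ± 0.11. Mmp2, the gelatinase gene on whose product TIMP-2 acts, read 1.05, 0.98 and 0.92 against 0.93, 0.78 and 1.59. Only DPG 3 stood above the controls, and the difference was 0.11 ± 0.21, or -0.13 without DPG 3.

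Serpinh1 encodes HSP47, a chaperone of the endoplasmic reticulum that binds newly made collagen and is also a heat shock gene. Its signal was 3.59, 3.46 and 3.53 in the controls and 3.81, 3.73 and 3.84 in the DPG rats, without overlap. The difference was 0.26 ± 0.07, a 1.20-fold higher signal, with a limma adjusted p = 0.292. Its second probe gave 0.12 ± 0.08 with overlapping groups. Col1a1, Col1a2, Col3a1 and Col4a1, which encode chains that HSP47 binds, had differences between -0.02 and 0.09 in the same rats by their brightest probes. A second probe of Col4a1 read 0.37. The other tested collagen genes ran from -0.36 (Col4a4) to 0.15 (Col5a1).

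Heat shock genes, listed as markers of handling or stress, were read in the same arrays. All 11 of the 11 tested (13 listed) had a log2 fold change above 0, with a median of 0.23, and 4 were higher at an unadjusted p of 0.05 (36.4%, against 6.68% of all features). None passed the adjusted threshold of limma. The groups overlapped for 6 of the 11 and were apart for 5 (45.5%, against 19.7% of all features). Their summed signal ran from 609 to 672 in the controls and from 731 to 802 in the DPG rats. The small heat shock protein genes Hspb1 (0.70 ± 0.07) and Cryab (1.56 ± 0.35) had the smallest p, with limma adjusted p-values of 0.191 and 0.257. Their part in the Serpinh1 difference was not tested. The 250 bases before the start of Serpinh1 are shown because they hold a match to the heat shock element. The stretch lies at chr1:163062977-163063226 on the minus strand (RefSeq, build GRCr8), written in the direction of the gene, with the element in capitals.
Serpinh1: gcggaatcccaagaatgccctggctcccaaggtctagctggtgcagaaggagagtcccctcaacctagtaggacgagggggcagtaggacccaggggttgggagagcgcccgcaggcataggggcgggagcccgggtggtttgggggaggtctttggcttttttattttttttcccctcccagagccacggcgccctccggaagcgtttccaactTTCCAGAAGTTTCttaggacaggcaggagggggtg

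The capitals mark bases -35 to -23 before the start, a match to 3 alternating units of GAA and TTC with 2 bases between units, in either order. This form was in 0.798% of all 33469 windows and in 1 of the 26 member windows, that of Serpinh1. The shorter form of 2 units (GAANNTTC or TTCNNGAA), which overlaps it, was in 15.9% of all windows and in 3 of the 26, with Col18a1 and Col5a1 beside Serpinh1. Binding was not measured.

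No difference of a mural or mesenchymal marker passed the test, and that of Tagln, described below, came closest. Of the 7 listed, 6 were tested, 4 above 0 and 2 below, with a median of 0.06 (-0.05 with normexp background correction). None passed an unadjusted p of 0.05 with limma (0%, against 12.4% of all features), and the groups overlapped for all 6. Acta2, which encodes the smooth muscle actin of arterioles and myofibroblasts, read -0.80, -1.03 and -1.17 in the controls and -1.13, -1.04 and -1.01 in the DPG rats. The DPG arrays lay inside the control range, and the difference was -0.06 ± 0.11 (95% confidence interval -0.33 to 0.21). Myh11, the smooth muscle myosin heavy chain gene, read -0.12, -0.16 and -0.61 against -0.36, -0.03 and -0.09, a difference of 0.14 ± 0.16, and its 4 probes lay between -0.02 and 0.14.

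Tagln, which encodes the actin-binding protein transgelin, had the largest difference of this class. It read 0.36, 0.43 and 0.16 in the controls and 0.41, 1.01 and 0.68 in the DPG rats, so DPG 1 lay within the control range and the other two above it. The difference was 0.38 ± 0.17, with a limma adjusted p = 0.428. Tagln passed an unadjusted p of 0.05 without DPG 1 (0.53), with normexp background correction (0.36) and with an intensity trend and robust variance (0.38), and in no other alternative. Des, the intermediate filament gene of muscle and mesangial cells, had -0.08 ± 0.10. The platelet-derived growth factor receptor genes Pdgfrb, of pericytes and mesangium, and Pdgfra, of fibroblasts, had 0.03 ± 0.08 and 0.09 ± 0.11. Pdgfrb read 0.30, 0.14 and 0.21 against 0.30, 0.13 and 0.30, nearly the same range in both groups.

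**Figure D4:**
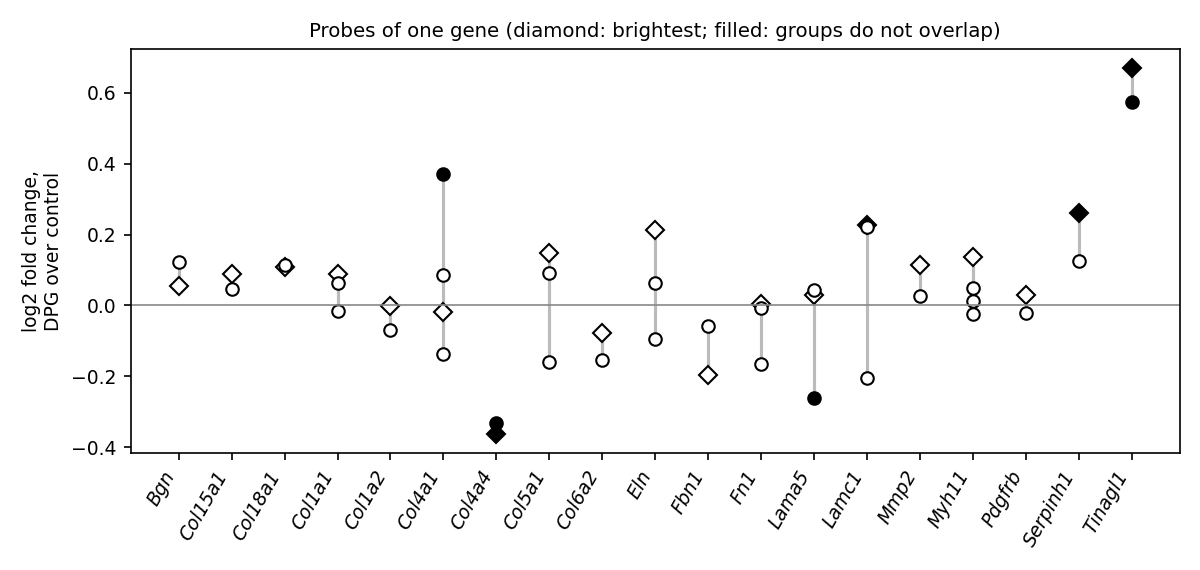
Log2 fold change (DPG over control) of each kept probe for the 19 genes with more than 1, with the brightest probe as a diamond and filled symbols where control and DPG arrays did not overlap. For 9 of the 19 genes the probes differ in sign, with Col4a1 from -0.14 to 0.37, while both probes of Tinagl1 lie at 0.58 and above and both of Col4a4 at -0.33 and below.

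Probes of one gene were compared for the 19 members with more than 1 kept probe. In 9 of them (Col1a1, Col4a1, Col5a1, Eln, Fn1, Lama5, Lamc1, Myh11 and Pdgfrb) the log2 fold changes had both signs. In the other 10 the signs were the same for all probes, and these included Tinagl1, Col4a4 and Serpinh1.

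Other genes of the same pathways were read from 6 lists of 166 entries, of which 128 were tested and 0 passed the adjusted threshold of limma. A gene dim in any array of a group passed the filter only through the other group, which favours a difference. The counts of these lists therefore take only genes well above background on all 6 arrays. Of all 28147 such features, 12.1% passed an unadjusted p of 0.05. Of 20 such genes for collagen synthesis and crosslinking, 3 were higher and 0 lower (15%). They were the prolyl hydroxylase genes P4ha1 (0.37 ± 0.11) and P3h1 (0.33 ± 0.13), and the lysyl hydroxylase gene Plod2 (0.28 ± 0.10). The groups of P3h1 overlapped, and its 3 probes ran from 0.04 to 0.33. Loxl3, a lysyl oxidase relative, is not in that count, since 1 of 3 control arrays was not well above background, and no difference is given for it.

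Of 17 other basement membrane and receptor genes, 1 was higher and 1 lower (11.8%), and the list median was -0.05. Agrn, the gene of the basement membrane heparan sulfate proteoglycan agrin, read 4.61, 4.75 and 4.66 in the controls and 5.24, 5.18 and 5.17 in the DPG rats. Its difference was 0.52 ± 0.07 (limma adjusted p = 0.211), and its 3 probes ran from 0.20 to 0.52. The laminin gamma 3 gene Lamc3 had -0.25 ± 0.07 (a second probe read 0.11), and the laminin receptor gene Itga6 had -0.32 ± 0.14 with overlapping groups.

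Of 22 other interstitial matrix genes, 3 were higher and 1 lower (18.2%). Thbs2 (thrombospondin 2) had 0.44 ± 0.12, Ogn (osteoglycin) 0.35 ± 0.13 and Emilin1, an elastic fibre glycoprotein gene, 0.34 ± 0.12. Efemp2, needed for elastic fibre assembly, had -0.38 ± 0.09. The groups of Ogn overlapped, and its second probe read -0.80. The 4 probes of Emilin1 ran from 0.03 to 0.36.

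Of 20 genes of transforming growth factor beta signalling, the main known inducer of matrix genes, 3 were higher and 1 lower (20%), with a median of 0.07. Tgfbi, a matrix protein gene named for its induction by this factor, read 1.59, 2.24 and 2.14 against 2.84, 2.72 and 2.68, a difference of 0.75 ± 0.18 (limma adjusted p = 0.273). Lrrc32, which tethers the latent factor to cell surfaces, had 0.29 ± 0.08, and the receptor gene Tgfbr2 had -0.19 ± 0.06. The 3 probes of Tgfbr2 ran from -0.19 to 0.005.

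Of 19 other proteases and inhibitors, 2 were higher and 3 lower (26.3%). The meprin genes Mep1a (0.39 ± 0.09) and Mep1b (0.54 ± 0.18) encode brush border proteases of the proximal tubule. The straight tubule markers were read in the same arrays. Of the 8, 7 lay above 0, with a median of 0.41. At an unadjusted p of 0.05 with limma, 6 were higher (75%, against 6.68% of all features), and 0 passed the adjusted threshold. Their summed signal ran from 599 to 760 in controls and from 920 to 976 in DPG. The part of these markers in the meprin values was not tested. The inhibitor gene Timp4 had -0.32 ± 0.11 and the collagen-degrading cathepsin gene Ctsk -0.22 ± 0.07.

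Of 24 other smooth muscle and pericyte genes, 5 were higher and 3 lower (33.3%), with a median of 0.01. The pore and regulatory subunit genes of the vascular ATP-sensitive potassium channel were both lower. Kcnj8 read 1.09, 0.78 and 0.89 in the controls and 0.52, 0.10 and 0.47 in the DPG rats, a difference of -0.55 ± 0.14 (limma adjusted p = 0.290). Abcc9 had -0.49 ± 0.11 (adjusted p = 0.257 from limma), with a second probe at 0.14. The connexin gene Gja4 (0.29 ± 0.07) and the actin crosslinker gene Flna (0.36 ± 0.09) were higher, each without overlap.

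Markers of the remaining tissues were read in the same arrays. Adipocyte markers (6 of 9 tested, with Lep not well above background) had a median of 0.19, or -0.19 over the 5 well above background on all arrays, and a summed signal from 3.83 to 4.17 in controls and from 3.67 to 5.06 in DPG. Of these 5, 2 were higher and 1 lower at an unadjusted p of 0.05 with limma (60%, against 12.1% of all such features). None passed the adjusted threshold. The lower one was Adipoq, at -0.45 ± 0.14, which had the smallest p of the list. The 2 higher ones had larger p and are not named. For Retn, well above background on 1 of 3 control and 3 of 3 DPG arrays, no difference is given. Medulla and collecting duct markers (10 of 10) had a median of -0.09 and a summed signal from 270 to 285 in controls and from 235 to 289 in DPG. Slc26a4 had -0.40 ± 0.13 and Aqp4 had 0.29 ± 0.09, with 4 probes of Aqp4 from -0.25 to 0.35. Convoluted proximal tubule markers had a median of -0.29 and a summed signal from 695 to 758 in controls and from 620 to 688 in DPG. Of these 9, 8 lay below 0. At an unadjusted p of 0.05 with limma, 4 were lower (44.4%, against 5.7% of all features), and 0 passed the adjusted threshold. Slc5a12 had -0.29 ± 0.08 and Slc4a4 had -0.30 ± 0.10. Straight tubule markers were led by Slc22a13 (0.69 ± 0.14) and Slc7a13 (0.78 ± 0.16). Endothelial markers lay above 0 for 5 and below 0 for 7 of the 12, with a median of -0.04 and a summed signal from 82.2 to 86.3 in controls and from 79.4 to 83.9 in DPG. The 2 with the smallest p were both higher, Ehd3 at 0.37 ± 0.11 and Pecam1 at 0.18 ± 0.07. Leukocyte markers (Itgam and Cd163 not well above background) had a median of 0.09, or 0.07 over the 11 well above background on all arrays. Of the 12 tested, 9 lay above 0 and 3 below, and the groups overlapped for all 12. Their summed signal ran from 125.2 to 155 in controls and from 125.5 to 167 in DPG. For Cd3e, well above background on 2 of 3 control arrays, no difference is given, and Cd8a had 0.71 ± 0.34. The part of these markers in the matrix values was not tested.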

How the data were processed

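Cy3-labelled total RNA of 6 renal cortices was hybridised to 1 Agilent array each, per the labels' protocols. The deposited spot intensity (processed signal) is background-subtracted and spatially detrended by Agilent Feature Extraction 10.7.1.1, per the file headers, and arrays were not scaled to each other. The submitters' processing notes name version 10.7. A deposited table of all arrays gives each spot as a linear ratio to about the array's 75th percentile, found by setting it against the scanner values. It served 1 alternative, and its scaling method is not stated in the labels.

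Only probes that are not controls were used. The 75th percentile of each array was subtracted from log2 processed signal. Kept probes (40406) were well above background in every rat of 1 or both groups, less 23 with outlier flags, also where an animal was left out. Probes were named through RefSeq transcripts of the assembly GRCr8, with 28206 of 61537 matching 1 symbol. The brightest kept probe stood for a gene. Probes with no symbol stayed as features under the name the array gives them, again by the brightest probe. This gave 29647 features, of which 11924 have a gene symbol. Groups came from the labels and were compared by moderated two-sided tests in limma (version 3.58.1, under R version 4.3.3), with 4 residual degrees of freedom and 1.95 from the prior. With 3 rats a group, exact permutation could not go below 0.1 and was not used. The fit was tested on simulated data. No separate test was made of gene lists.

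The members and lists were chosen with earlier results of these data known. All members could be named, with all arrays shown for those past an unadjusted p of 0.05 and for 12 fixed genes, of which Col4a2 and Col4a3 were not measured. Pathway lists gave the 4 genes with the smallest p and marker lists the 2, apart from genes that are not reported here. Alternatives were normexp background correction (offset 50, on the median pixel intensity of spot and background), median or quantile scaling, no filter or all arrays above background, outlier flags kept, the mean of probes, every probe alone, an intensity trend with robust variance, array weights, a replicate block, the deposited table and each animal left out. A slide block could not be fitted, since each slide held 1 group.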

Additional observations from a re-analysis of the deposited data

How the results depend on the processing

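Tinagl1, Col4a4, Serpinh1 and Timp3 kept their sign and passed an unadjusted p of 0.05 in all 17 alternatives that give 1 value per gene: Tinagl1 at 0.60 to 0.73, Serpinh1 at 0.19 to 0.29, Col4a4 at -0.41 to -0.32 and Timp3 at -0.40 to -0.33. No member passed the adjusted threshold in any alternative. Of all features, 1 did without DPG 2 and 0 in the other fits. With 1 animal omitted, 4 to 6 members passed an unadjusted p of 0.05, against 2539 to 3917 of all 29647 features. The groups of 5 to 8 members did not overlap (8 without control 3). Groups with an array fewer separate more readily by chance, and the share over all features was not counted for these fits. Taking every probe alone gave 9 for both counts, which are probes and not genes (5008 of all 40383 probes passed that p). With 1 animal omitted, medians ranged from -0.091 (without DPG 3) to 0.14 (without DPG 2) for processing and turnover, -0.062 to 0.12 for fibrillar, 0.021 to 0.13 for basement membrane, 0.0015 to 0.077 for mural genes and -0.054 to 0.12 for all members. With normexp the mural median was -0.055 and the processing median -0.0091, and with the mean of the probes the fibrillar median was -0.0021. With the replicate block 5 members and 2987 features passed an unadjusted p of 0.05. Deviations of same-numbered animals from their group means had r = -0.02, -0.09 and -0.07 across features, which are not independent. Other pairs ran from -0.06 to 0.13 (control 3 with DPG 2). With 3 rats a group these values cannot show whether the numbers pair animals. A slide block could not be fitted. Each gene that changed sign did not pass an unadjusted p of 0.05 in the reported fit. Those values were with normexp 0.0020 for Col1a2, 0.0084 for Col6a2, 0.058 for Mgp, -0.042 for Lama5, -0.050 for Pdgfrb, -0.060 for Pdgfra, with median scaling 0.012 for Col1a2, with quantile normalization -0.0013 for Fn1, with the mean of the probes -0.056 for Fn1, 0.075 for Col4a1, -0.063 for Lama5. Omitting 1 animal gave ranges that cross 0, namely -0.12 to 0.12 for Col1a2, -0.23 to 0.041 for Col6a2, -0.056 to 0.12 for Fn1, -0.062 to 0.015 for Mgp, -0.073 to 0.048 for Col4a1, -0.12 to 0.046 for Timp2, -0.15 to 0.041 for Acta2, -0.0093 to 0.084 for Pdgfrb, -0.16 to 0.22 for Col1a1, -0.063 to 0.12 for Col3a1, -0.21 to 0.36 for Dcn, -0.026 to 0.10 for Lama5, -0.020 to 0.24 for Myh11, -0.017 to 0.26 for Col5a1, -0.057 to 0.14 for Bgn, -0.094 to 0.31 for Col15a1 and -0.13 to 0.27 for Mmp2. The cause was not tested. Genes near the background are limited by signal, and 3 rats a group limit all calls.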
